A study of Homo sapiens with 16 samples.

Results

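The regions described here are the HDGF peaks of control HEK293T cells that no other peak list of the study covered. They were chosen by overlap alone: a peak of HDGF in control-depleted cells, on chromosomes 1 to 22 or X, was kept if it shared no base with any peak of HDGF after glucose starvation or of INTS13 in any of 3 conditions. The rule kept 69769 of 106673 HDGF control peaks, 65.4% (exact Clopper-Pearson 95% interval 65.1 to 65.7%, covering counting error only). They are called control-only HDGF peaks below, and the 36904 peaks that the rule removed are called the other HDGF control peaks. Over the whole series the 5 lists held 327585 peaks on these chromosomes.

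HEK293T is an established human embryonic kidney line, used here as 1 wild-type line. Chromatin immunoprecipitation with paired-end sequencing (ChIP-seq, reads of 150 bp) was run on 16 samples in 8 groups of 2 labelled replicates. HDGF was precipitated with a Proteintech antibody from control-depleted cells, whose list supplies the control-only peaks, and from cells held for 24 h in medium without glucose. INTS13 was precipitated from cells depleted of HDGF for 72 h with an siRNA pool (Bethyl antibody), from cells starved of glucose for 24 h (Proteintech antibody) and from control-depleted cells (Bethyl antibody), so antibody and starvation cannot be told apart for INTS13. The labels of the starved samples name no depletion, so control depletion and starvation cannot be told apart for HDGF or INTS13. The other 6 samples are inputs of the 3 conditions and were not analysed here. Each ChIP group has 1 deposited peak list. Replicate error therefore cannot be given for any value, and no difference between conditions was tested.

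HDGF, hepatoma-derived growth factor, is a chromatin-associated protein with a PWWP domain. PWWP domains bind nucleosomes methylated at lysine 36 of histone H3, a mark laid down along the bodies of genes as RNA polymerase II transcribes them. INTS13 is a subunit of Integrator, the complex that cleaves nascent RNA and ends transcription close to many gene starts.

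The control-only peaks were mostly inside genes and mostly away from the gene start itself. The sequences below show both cases at gene starts, as the 250 bases before the start in the RefSeq table of GRCh38.p14 (the hg38 assembly), 5′ to 3′ along the gene. Capitals mark matches, on either strand, to any of the motifs GGGCGG (a GC box), CCAAT (bound by NF-Y), TATAAA (bound by TBP), GGAAGT (an ETS core), the ZNF143-related ACTACAA and the cyclic AMP response element TGACGTCA. At 3 starts the bases lay wholly or partly under a control-only peak: EIF4EBP2, which encodes a translation repressor controlled by mTOR, SENP8, which encodes a NEDD8-specific protease, and MCMBP, which encodes a binding partner of the MCM helicase. All 6 starts printed here were picked after their values were seen.
EIF4EBP2 (chr10:70403895-70404144, plus strand): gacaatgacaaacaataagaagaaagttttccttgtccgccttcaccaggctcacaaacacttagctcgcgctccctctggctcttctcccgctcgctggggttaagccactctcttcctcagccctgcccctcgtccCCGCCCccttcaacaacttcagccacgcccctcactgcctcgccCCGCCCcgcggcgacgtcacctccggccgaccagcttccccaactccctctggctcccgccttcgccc
SENP8 (chr15:72114008-72114257, plus strand): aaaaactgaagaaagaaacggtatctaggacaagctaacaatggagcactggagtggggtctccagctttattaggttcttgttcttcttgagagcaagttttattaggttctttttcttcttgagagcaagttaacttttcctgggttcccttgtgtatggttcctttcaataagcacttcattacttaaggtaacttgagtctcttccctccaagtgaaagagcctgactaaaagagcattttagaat
MCMBP (chr10:119873582-119873831, minus strand): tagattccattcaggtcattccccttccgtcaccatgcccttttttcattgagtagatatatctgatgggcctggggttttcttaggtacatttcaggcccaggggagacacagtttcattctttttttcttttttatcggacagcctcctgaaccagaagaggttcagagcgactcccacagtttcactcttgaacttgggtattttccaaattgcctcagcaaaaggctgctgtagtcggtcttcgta
GC contents were 63.2% (EIF4EBP2), 38.8% (SENP8) and 45.2% (MCMBP), and GGGCGG was found in EIF4EBP2 while none of the 6 motifs was found in SENP8 or MCMBP. At the 21 starts with control-only peaks alone and a summit inside these 250 bases, GC ran from 33.2% to 71.2%. The median was 52.8%, against 62.4% in the same 250 bases of all promoters. At the next 3 starts the control-only peak lay off the printed bases: downstream of the start of MCM2, a subunit of the replicative helicase, and upstream of the starts of RANGRF, which encodes a Ran-binding protein, and ATP9A, which encodes a phospholipid flippase.
MCM2 (chr3:127598161-127598410, plus strand): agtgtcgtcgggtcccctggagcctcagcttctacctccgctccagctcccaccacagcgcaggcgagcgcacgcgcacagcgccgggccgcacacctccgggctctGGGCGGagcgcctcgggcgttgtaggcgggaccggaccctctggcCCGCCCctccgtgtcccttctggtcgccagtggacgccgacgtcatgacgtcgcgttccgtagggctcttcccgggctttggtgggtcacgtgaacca
RANGRF (chr17:8288420-8288669, plus strand): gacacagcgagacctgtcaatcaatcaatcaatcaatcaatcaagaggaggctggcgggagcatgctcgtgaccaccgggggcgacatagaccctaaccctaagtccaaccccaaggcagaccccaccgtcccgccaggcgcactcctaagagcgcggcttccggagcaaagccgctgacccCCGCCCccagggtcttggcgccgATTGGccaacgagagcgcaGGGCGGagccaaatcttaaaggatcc
ATP9A (chr20:51768391-51768640, minus strand): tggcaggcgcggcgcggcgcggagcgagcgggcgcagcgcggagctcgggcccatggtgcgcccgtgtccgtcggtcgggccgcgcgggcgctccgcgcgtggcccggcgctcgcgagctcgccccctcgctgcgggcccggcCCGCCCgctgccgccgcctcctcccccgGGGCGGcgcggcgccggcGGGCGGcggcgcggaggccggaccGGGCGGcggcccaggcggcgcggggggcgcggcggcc
Their GC contents were 70.8% (MCM2), 61.6% (RANGRF) and 89.2% (ATP9A), and each window held GGGCGG on at least 1 strand. Over the table, in the 146 promoters (250 bases before to 50 after the start) overlapped by control-only peaks and by no other HDGF control peak, median GC was 54.8% with a median of 9 CpG, against 60.7% and 15 CpG in the 235 promoters overlapped by other HDGF control peaks and 62.7% and 22 CpG over all 15811 promoters. GGGCGG was present in 39.7% of the control-only promoters, 50.6% of those under other HDGF control peaks and 58.5% of all promoters. The share of control-only promoters holding the other motifs was 35.6% for CCAAT (36.3% of all promoters), 9.59% for TATAAA (9.64%), 26.0% for GGAAGT (24.8%), 4.11% for ACTACAA (3.15%) and 1.37% for TGACGTCA (2.59%).

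The control-only peaks were short and close to the detection limit of their list. Their median width was 307 bp (quartiles 239 to 421 bp), against 451 bp (297 to 785 bp) for the other HDGF control peaks, and 81 of the control-only peaks were wider than 2 kb, against 2010 of the others. The authors' fold enrichment at the summit had a median of 2.73 (quartiles 2.60 to 2.99, highest 5.99), against 2.99 (2.73 to 3.38, highest 52.2). In this list each fold is a whole number of summit reads plus 1, divided by a background of 6.69 reads per position plus 1, and on that scale the median summit held 20 reads in control-only peaks and 22 reads in the others. A −log10 q of at least 10 was reached by 18 control-only peaks and by 665 of the others. Strength bears on whether a peak is found in another list, so these values describe the selection.

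**Figure D1:**
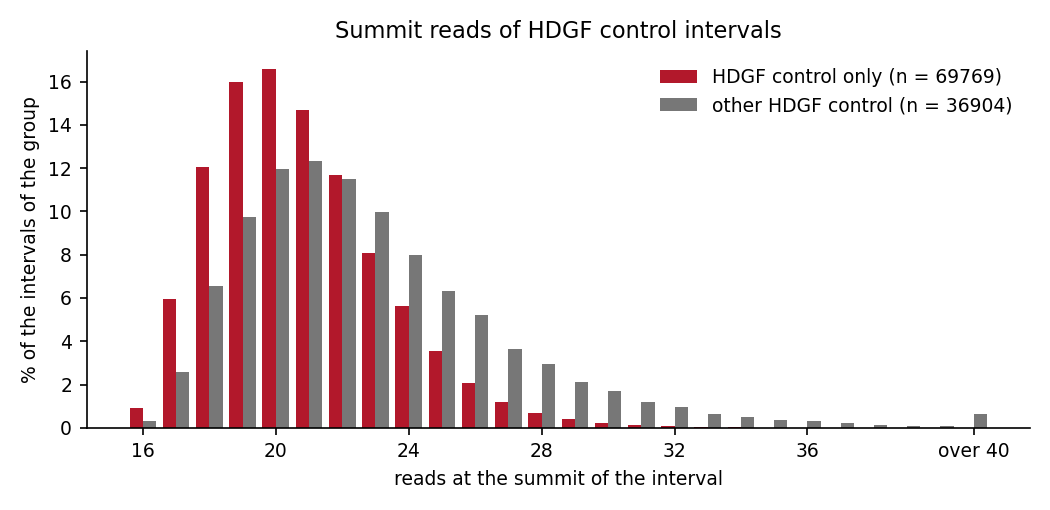
Reads at the summit (x axis) as the share of control-only HDGF peaks (red, 69769) and of the other HDGF control peaks (grey, 36904) at each value (y axis, %); the last bars pool summits over 40 reads. The control-only distribution is centred on 20 reads and ends at 45, and the other peaks are centred on 22 reads and reach 400.

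"Only in control" holds at the authors' threshold and not at any distance. Among all HDGF control peaks, 79% shared no base with a peak of HDGF starvation, and the removed peaks came from every list: 20.99% of HDGF control peaks shared a base with HDGF starvation, 23.2% with INTS13 after HDGF depletion, 5.42% with INTS13 starvation and 10.8% with INTS13 control. The nearest HDGF starvation peak was at a median of 8239 bp from a control-only peak, and 15.8% had one within 1 kb. For INTS13 the medians were 3021 bp after HDGF depletion, 100102 bp in starvation and 39161 bp in control. A peak of any of the 4 lists lay within 1 kb of 35.4% of the control-only peaks, and 18.7% had none within 10 kb. Just inside the rule, 430 control-only peaks lay within 10 bp of another list's peak (median width 315 bp, fold 2.86), and just outside it 415 removed peaks shared at most 10 bases with one (297 bp, fold 2.86).

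Control-only HDGF peaks lay inside protein-coding genes more often than the peaks of any other list. Their summit fell in a protein-coding gene in 74.3% of cases (95% interval 74.0 to 74.6%), against 60.96% (60.5 to 61.5%) for the other HDGF control peaks, and an even spread over each chromosome would give 41.9% and 40.7%. Among the removed peaks, the share was 73.2% for the 8003 that overlapped HDGF starvation and no INTS13 peak, 60.7% for the 14518 that overlapped INTS13 alone and 54.4% for the 14383 that overlapped both. The lists themselves had 64.4% (HDGF starvation), 53.3% (INTS13 after HDGF depletion), 44.6% (INTS13 starvation) and 42.0% (INTS13 control). Over all HDGF control peaks the share was 69.7%, and the rule itself removes peaks where these less genic lists lie. The gap between control-only and other HDGF control peaks was 13.3 percentage points, and with the other peaks weighted to the same 25 classes of strength and width their share was 61.3%, lower than that of control-only peaks in all 25 classes. The gap was 8.09 points within chromosomes, with control-only peaks higher on 21 of 23, and 2.69 points within bins of 5 Mb, where they were higher in 195 of 381 bins holding both kinds. Most of the gap thus lay between bins and not within them. Neighbouring peaks share reads and region, so the intervals given here are narrower than independent regions would allow.

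Along genes, control-only peaks were most frequent after the start and thinned to a plateau further in. In 8923 protein-coding genes of at least 20 kb with a known strand, the first of 10 equal parts held 62.6 summits per Mb (6255 summits) and the last part 37.6 per Mb (3754 summits), a ratio of 1.67. Density fell to 36.7 per Mb by part 6 and then stayed between 36.1 and 37.6 per Mb. The other HDGF control peaks had a ratio of 1.11 and HDGF starvation peaks the opposite tilt, with 3266 summits in the first part, 4658 in the last and a ratio of 0.701. For INTS13 peaks the 2 ends were closer, with ratios of 1.13 after HDGF depletion, 0.948 in starvation and 1.00 in control. These ratios compare the ends only, and all 3 INTS13 lists were lower in between. In starvation there were 710 INTS13 summits in part 1, 359 in part 3 and 749 in part 10. The dip was smaller in the other INTS13 lists. Parts 1, 6 and 10 held 5190, 4180 and 4595 summits after HDGF depletion, and 1163, 944 and 1163 in control. More control-only summits lay in the first than in the last part on all 22 chromosomes with such genes. The other HDGF control peaks did so on 15 of them and HDGF starvation peaks on 1. The rule itself removes HDGF control peaks where starvation peaks lie, and the ratio over all HDGF control peaks was 1.48. With the starvation list left out of the rule, the ratio was 1.59.

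The tilt was present in genes of most lengths. It was 1.68 in genes of 20 to 50 kb, 1.71 from 50 to 100 kb, 1.86 from 100 to 200 kb and 1.75 from 200 to 500 kb, and 1.01 in the 262 genes over 500 kb. Outside genes, density fell off with distance: 44.9 summits per Mb lay in the last 1 kb before the start and 20.8 per Mb at 50 to 20 kb before it, and past the gene end 44.2 per Mb in the first 1 kb and 18.6 per Mb at 20 to 50 kb. Averaged over the gene, control-only density was 2.03 times that at 50 to 20 kb upstream, against 1.10 times for the other HDGF control peaks, 1.21 for HDGF starvation, 0.772 for INTS13 after HDGF depletion, 0.867 for INTS13 starvation and 0.747 for INTS13 control. Over all HDGF control peaks, before the rule, it was 1.63 times.

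**Figure D2:**
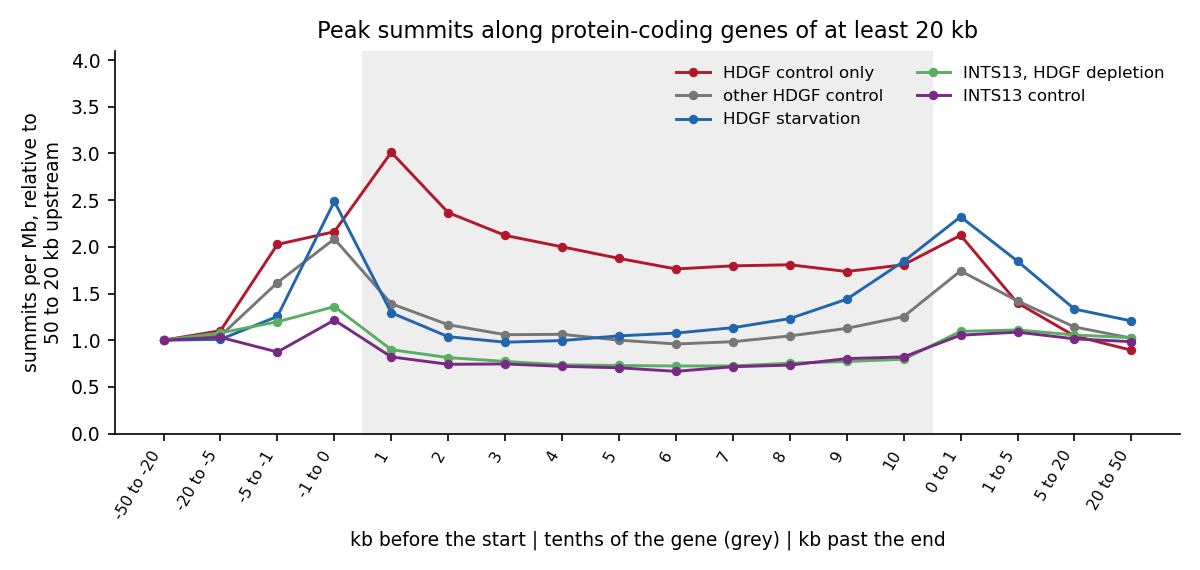
Peak summits per Mb along 8923 protein-coding genes of at least 20 kb, relative to the density of the same set at 50 to 20 kb upstream (y axis), in 4 bins before the start, 10 parts of the gene (grey area) and 4 bins past the end (x axis); each line is 1 set of peaks. Control-only HDGF peaks (red) reach 3.01 in the first part and 1.81 in the last, and HDGF starvation peaks (blue) 1.29 in the first and 1.84 in the last.

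Directly at gene starts, control-only peaks were depleted, with shoulders on both sides. Within 500 bp of 15811 protein-coding starts there were 14.9 control-only summits per Mb (236 summits), against 70.6 per Mb at 1 to 2.5 kb upstream and 106 per Mb at 1 to 2.5 kb downstream. The centre thus had 0.169 of the mean density of its shoulders. The lowest value was 8.85 per Mb in the first 250 bp of the gene and the highest 118 per Mb at 1.5 to 1.75 kb downstream. The other HDGF control peaks had the same dip, at 0.324, so it was present on both sides of the rule. HDGF starvation peaks had none (1.01), nor had INTS13 peaks after HDGF depletion (1.06). INTS13 peaks were instead concentrated at the start in starvation (7.97) and in control (2.09).

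**Figure D3:**
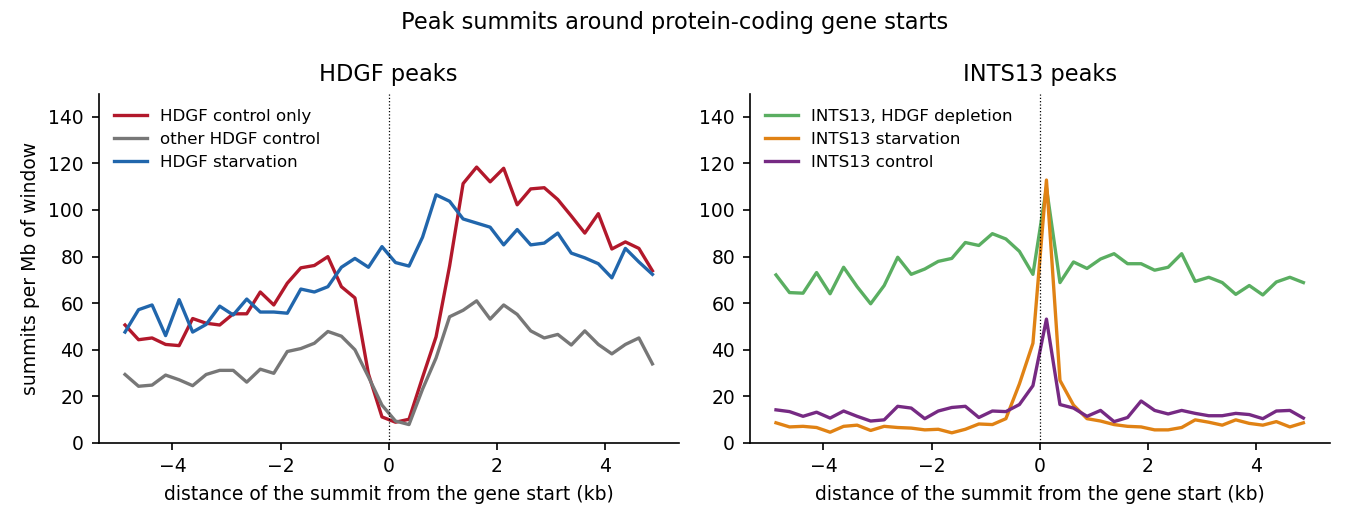
Summits per Mb of window (y axis) in steps of 250 bp by distance from 15811 protein-coding gene starts (x axis, kb, positive into the gene), for HDGF peaks (left) and INTS13 peaks (right). Control-only HDGF peaks (red) fall to 8.85 per Mb just past the start, where HDGF starvation peaks (blue) are at 77.4 per Mb.

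Counted by peak, 987 of 68779 control-only peaks on chromosomes with annotated starts had their summit within 1 kb of a protein-coding start, 1.44% (1.35 to 1.53%), against 2.10% (1.95 to 2.25%) of the other HDGF control peaks. The share was 3.62% in the HDGF starvation list, and for INTS13 it was 2.29% after HDGF depletion, 5.82% in starvation and 1.85% in control. The difference from the other HDGF control peaks was −0.663 percentage points, −0.748 within classes of strength and width, −1.22 within chromosomes and −1.53 within 5 Mb bins, so it did not shrink when position was held. Counted by gene, 976 starts (6.17% of 15811) had a control-only peak in this window, and 610 of them (3.86%) had no other peak of any list there. A HDGF starvation peak was also present at 190 of the 976 starts and an INTS13 peak at 250.

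The 12 starts with the strongest control-only peak and no other peak in the window had folds of 3.64 to 4.29, or 27 to 32 summit reads. The strongest was EIF4EBP2, whose promoter is printed above, with a summit at −465 bp, upstream of the start (chr10:70403364-70403988, fold 4.29). MUTYH, a DNA glycosylase gene of base excision repair, had one at −684 bp (chr1:45340956-45341314, fold 3.90), and ANKRD34A had one at 738 bp, downstream of its start (chr1:145963638-145964363, fold 3.90). The folds were 3.77 at ATP9A, PLCH1, RANGAP1, RANGRF, RIMBP3, SENP8 and THYN1, and 3.64 at CNOT9 and MCM2. RANGAP1 encodes the GTPase activator of Ran and CNOT9 a subunit of the CCR4-NOT deadenylase. None of these 12 summits lay closer to the start than that of RIMBP3, at −437 bp, and the farthest was that of RANGAP1, at −881 bp.

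In protein-coding gene bodies, control-only peaks were concentrated in a minority of genes. A control-only summit lay in 8228 of 19970 genes (41.2%). Density was set relative to the mean over the gene bodies of the same chromosome, and a gene with at least 3 such summits and at least 2 times that mean was called dense. By this measure 2909 genes (14.6%) were dense, and they held 68.0% of the control-only summits in genes. Dense genes were called from these same summits, so a large share in them follows from the definition. Of the 2540 genes expected to hold at least 5 summits at the chromosome's mean, 941 (37.0%) held none and 396 (15.6%) were at 2 times the mean or more. Among the 3351 genes of at least 100 kb, 1402 (41.8%) had none. Genes of 20 to 50 kb had 1.53 times the chromosome's density, and the ratio was 1.13 for 100 to 200 kb, 0.727 for 200 to 500 kb and 0.329 over 500 kb.

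The densest genes among those of at least 20 kb with at least 5 summits held peaks spread along their length, and the control-only peaks covered 27.9% to 37.2% of the 6 genes. MORF4L1, which encodes a chromodomain protein that binds methylated lysine 36 of histone H3, had 18 control-only summits in 25250 bp (chr15:78872890-78898139), or 71.3 per 100 kb against 22.4 in its flanks, the intergenic sequence within 50 kb. It held 4 other HDGF control summits, 1 of HDGF starvation, 3 of INTS13 after HDGF depletion, 0 of INTS13 starvation and 1 of INTS13 control. HNRNPC, an abundant pre-mRNA binding protein gene (chr14:21209147-21269442), had 40 control-only summits, 66.3 per 100 kb against 4.95 in its flanks. It held 3 other HDGF control summits, 4 of INTS13 after HDGF depletion, and 0 of HDGF starvation, INTS13 starvation and INTS13 control. Both were chosen for their density in peaks that by the rule touch no HDGF starvation peak, so the low starvation counts describe that choice.

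TICRR, needed to start DNA replication (chr15:89575469-89628023), had 36 control-only summits, 68.5 per 100 kb against 5.85 in its flanks. It also held 5 other HDGF control summits, 6 of HDGF starvation and 6 of INTS13 after HDGF depletion, and most of the starvation summits sat in the last part of the gene. RTCA, an RNA 3′-phosphate cyclase gene (chr1:100266216-100292769), had 18 control-only summits, 67.8 per 100 kb against 10.5 in its flanks, and 1 of HDGF starvation. SCAF4, whose product binds the tail of RNA polymerase II (chr21:31671000-31732118), had 42 (68.7 per 100 kb against 11.02), and TSPAN3, a tetraspanin gene (chr15:77041404-77071109), had 20 (67.3 against 19.05). Folds within these 6 genes ran from 2.21 to 4.03.

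**Figure D4:**
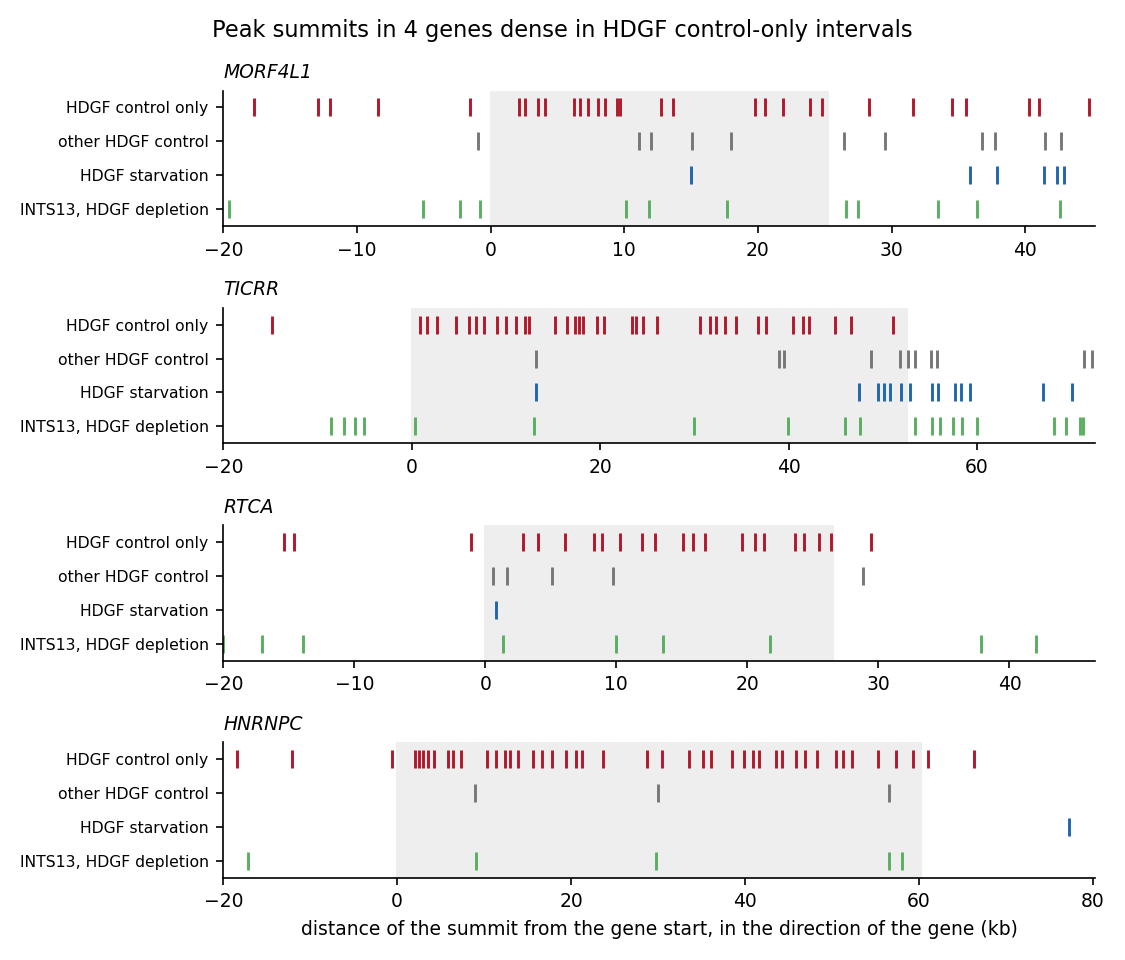
Position of each peak summit (tick marks) relative to the gene start, in the direction of the gene (x axis, kb), in 4 genes dense in control-only HDGF peaks; the grey area is the gene and rows are sets of peaks. Control-only summits run along each gene, 18 in MORF4L1, 36 in TICRR, 18 in RTCA and 40 in HNRNPC, against 1, 6, 1 and 0 HDGF starvation summits.

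The genes with the most control-only summits in absolute number were long, and 4 of the 6 lay on chromosome 13. They were the glypican genes GPC6 with 306 (chr13:93216529-94408020) and GPC5 with 281 (chr13:91398621-92867237), KLF12, a zinc-finger repressor gene, with 208, and DACH1, a transcription cofactor gene, with 191. The other two were DTNA, which encodes a dystrobrevin, with 153 on chromosome 18, and ARID1B, a subunit of the BAF chromatin remodelling complex, with 152 on chromosome 6. In contrast to the densest genes, GPC6 and GPC5 were rich in every list: GPC6 also held 192 other HDGF control summits, 187 of HDGF starvation, 256 of INTS13 after HDGF depletion, 58 of INTS13 starvation and 179 of INTS13 control. Its control-only density was 25.7 per 100 kb, against 30.5 in its flanks. DACH1 reached 44.5 per 100 kb against 39.0 in its flanks, and ARID1B 34.96 against 9.

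Most lists of housekeeping and transcription genes held control-only peaks at more than their chromosomes' mean density, replication histone genes at less, and genes of other tissues at less. Over all genes 14.6% were dense and the median gene had 0 times the mean, and genes of 20 to 50 kb as a class were at 1.53 times. The shares and ratios below are read against these. Of 77 genes for cytosolic ribosomal proteins, 44 held a control-only summit and 18 were dense, and together they had 5.66 times the density of their chromosomes' genes (exact 95% Poisson interval 4.65 to 6.83, counting error only; median gene 4.09). RPL37A had 4 summits and RPL37 had 6, and these examples, picked after their values were seen, held 0 of HDGF starvation. The same genes, many of them short, were still denser in other HDGF control peaks (10.98 times) and dense in HDGF starvation peaks (5.02 times). For HDGF starvation, genes under 5 kb as a class were already at 3.75 times. Of 41 translation factor genes, 17 were dense (3.596 times, median gene 3.47), with 26 summits in EIF3A and 16 in EIF4B, 2 initiation factor genes.

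Genes for pausing and termination of RNA polymerase II were at 5.22 times their chromosomes' density (median gene 2.73), with 28 of 33 holding a summit and 11 dense. MLLT3, a subunit gene of the super elongation complex, held 121 of their 222 summits, and without it the list was at 2.89 times. PCF11, a termination factor gene, had 9, and POLR2A, the largest polymerase subunit gene, had 10. Readers, writers and demethylases of lysine 36 methylation were at 4.64 times (median gene 3.67), with 13 of 22 dense. Among these were the methyltransferase genes NSD1 with 87 summits and SETD2 with 43, and the demethylase gene KDM2A with 27. In NSD1 there were also 45 other HDGF control summits and 21 of HDGF starvation, and in SETD2 4 and 1. Body examples in this and the neighbouring paragraphs on lists were picked after their values were seen.

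Oxidative phosphorylation genes were at 3.46 times (11 of 31 dense, median gene 4.56), with 11 summits in ATP5PB and 5 in NDUFB8. DNA damage repair genes were at 2.42 times (12 of 25 dense), against 0.777 times for other HDGF control peaks, 0.578 for HDGF starvation, 2.40 for INTS13 starvation and 2.49 for INTS13 control. Cell cycle genes were at 2.36 times (16 of 37 dense), with 17 summits in CDC25A, 11 in MCM2 and 4 in CDKN1B, which encodes the p27 inhibitor. The integrated stress response list was at 2.18 times (12 of 38 dense), with 8 summits in MTHFD2 and 3 in HSPA5. These picked examples held 0 of HDGF starvation, but the list was at 1.83 times for HDGF starvation peaks. PHGDH, for example, held 9 control-only summits and 14 of HDGF starvation. AMPK and mTOR pathway genes were at 2.45 times (10 of 20 dense), and at 3.77 times for HDGF starvation peaks. Glycolysis genes were at 1.83 times (7 of 25 dense), cholesterol and fatty acid synthesis genes at 1.66 (10 of 25) and autophagy and lysosome genes at 1.44 (10 of 41), near the value of genes of 20 to 50 kb. Other HDGF control peaks were denser in these 3 lists (3.10, 3.92 and 1.601 times), as were HDGF starvation peaks (2.93, 2.45 and 1.91 times). Immediate early genes had 1 dense gene of 34 and were at 1.55 times (0.982 to 2.33), against 4.39 for other HDGF control peaks. No ratio was tested against another. Leaving out the gene with most control-only summits moved none of the control-only ratios in this paragraph by over 1.5 times. Ratios of the other sets of peaks were not recomputed in this way, and some lean on single genes. In the DNA damage repair list, PARP1 held 24 INTS13 starvation and 34 INTS13 control summits, and 0 control-only summits. In the AMPK and mTOR list, PRKAG2 held 139 HDGF starvation summits.

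For the study's own proteins, Integrator genes were at 1.88 times (6 of 20 dense), with 17 summits in INTS14, 23 in INTS7 and 10 in INTS2. HDGF itself held 3 control-only summits and 8 other HDGF control summits, and its relative HDGFL3 held 17; the 5 family genes were at 2.07 times, and at 1.03 times without HDGFL3. PSIP1, which encodes the related PWWP protein LEDGF, held 0 peaks of HDGF control. Of 7 genes listed as reported HDGF targets, 5 held a control-only summit, with 5 in NCL, 3 in VEGFA and 0 in SMYD1 (list at 3.81 times, 3 dense). The same list was at 8.72 times for other HDGF control peaks and 8.28 times for HDGF starvation.

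Genes that mark other tissues held few control-only peaks. None of the 16 liver, 20 blood, 17 muscle and 14 neuron marker genes was dense, at 0.214, 0.138, 0.492 and 0.0907 times their chromosomes' density, and ALB, the liver albumin gene, and PTPRC, the blood cell CD45 gene, held 0. The muscle markers were at 3.59 times for other HDGF control peaks, with 46 of those in ACTN2. Long synaptic and adhesion genes were at 0.107 times, with 165 summits in 29 genes, 102 of them in DAB1 (0.0455 times without it), and 0 dense. The ratio of the muscle markers was 0.144 without ACTN2 and that of the blood markers 0.0492 without CD2, and that of the liver markers 0.118 without CYP3A4. Replication histone genes, which are short, had 2 summits in 50 genes and 0 dense (0.276 times, interval 0.0334 to 0.997).

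At the starts of list genes the counts were small. Over all 15811 starts, 6.17% had a control-only peak within 1 kb, and 3.86% had one without any other peak. A control-only peak lay within 1 kb of the start at 4 of 30 cell cycle genes (MCM2, E2F1, CDC25B and CDKN1B), all 4 with no other peak there, against 3.86% of all starts. It did so at 6 of 26 oxidative phosphorylation genes, 5 without another peak, among them SDHB, a succinate dehydrogenase subunit gene whose summit lay at −181 bp. Ribosomal protein genes had one at 6 of 61 starts, and each of the 6 had another list's peak or another HDGF control peak there too. The 2 Integrator starts were INTS6L (fold 3.12) and NABP2 (fold 2.99, with a HDGF starvation peak in the window). There were 0 of 30 among pausing and termination genes, 0 of 45 among histone genes and 0 of 5 in the HDGF family. At the share of 6.17% over all starts, lists of these sizes would hold few such starts.

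Some microRNA hairpins lay under control-only peaks. Of 1558 hairpins in the RefSeq table, 37 (2.37%) shared a base with a control-only peak, against 51 (3.27%) with another HDGF control peak. Control-only peaks covered 25.7 Mb in all and the other HDGF control peaks 27.7 Mb. Of the 37, 33 (89.2%) lay inside a protein-coding gene, against 63.4% of all hairpins. Mature sequences from 2 of these hairpins are shown, only hsa-miR-425-3p for MIR425, with the seed (bases 2 to 8) in capitals. The hairpins were picked after their peaks were seen.
hsa-miR-425-3p: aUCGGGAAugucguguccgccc
hsa-miR-16-5p: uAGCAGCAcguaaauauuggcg
hsa-miR-16-2-3p: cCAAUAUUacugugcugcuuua
MIR425 lies in DALRD3 under the strongest such peak (chr3:49019597-49020437, fold 3.77), and MIR16-2 lies in SMC4, a condensin gene (chr3:160404741-160404958, fold 2.73). The 3 seeds differ from each other.

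Across chromosomes, the share of HDGF control peaks that were control-only ran from 50.2% to 95.5%. The lowest shares were on chromosomes 1 (50.2%), 13 (50.3%) and 22 (50.7%), where control-only peaks were also densest, at 60.4, 50.5 and 55.9 per Mb. The highest were on chromosomes 2 (95.5%), 4 (92.9%) and 14 (90.6%), at 9.81, 5.22 and 14.2 per Mb. Over the 23 chromosomes the share fell with the density of all HDGF control peaks (Spearman rho −0.79, a description across chromosomes of 1 list, with no test). Chromosomes 1, 13, 22 and X held 36.5% of the control-only peaks and 66.0% of the other HDGF control peaks. X added little to this contrast, with 2.60% and 2.64% of these peaks and a control-only share of 65.1% at 11.6 per Mb. Chromosome 21, outside this group, was nearer to 1, 13 and 22, with a share of 52.6% at 38.8 per Mb. On chromosome 13 only 33.3% of control-only peaks and 26.4% of the others lay in protein-coding genes, the lowest shares of all chromosomes. Other lists were dense on the same chromosomes: HDGF starvation peaks stood at 73.0 per Mb on chromosome 1 and 104 per Mb on chromosome 22, against 4.39 per Mb on chromosome 2, and INTS13 peaks after HDGF depletion at 127 and 117 per Mb against 7.74 per Mb. The part of this shared density in the chance of an overlap was not tested.

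**Figure D5:**
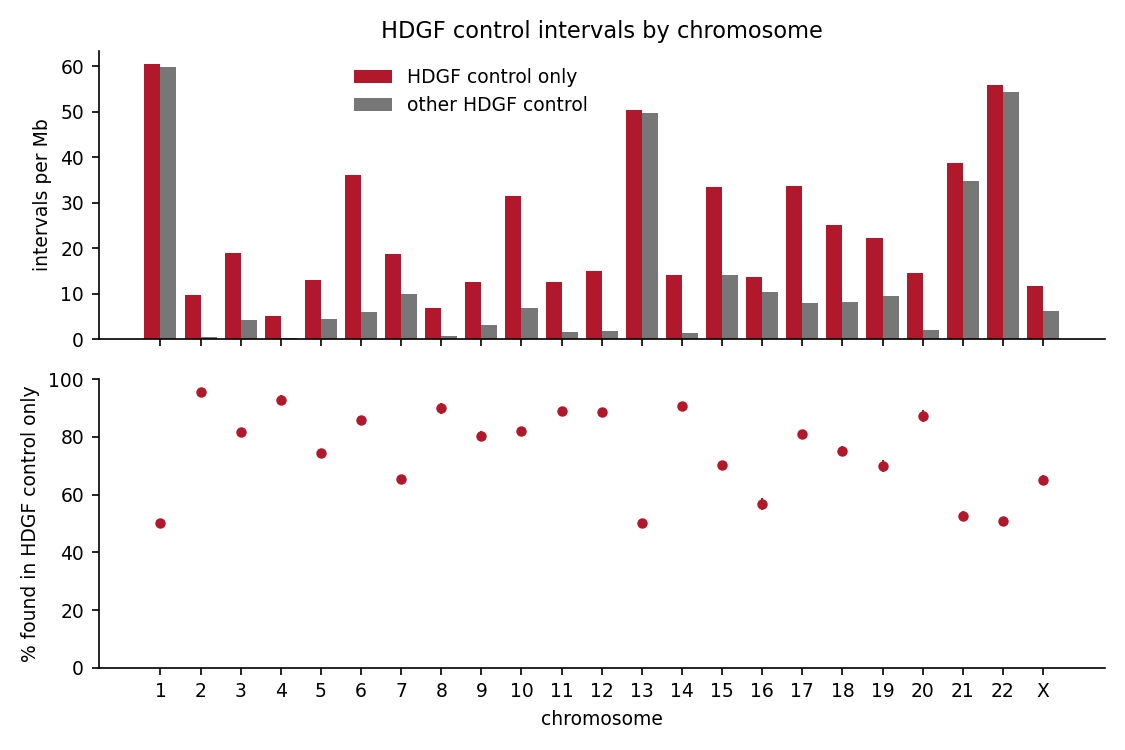
Intervals per Mb on each chromosome (top; red control-only HDGF peaks, grey other HDGF control peaks) and the share of HDGF control peaks that were control-only (bottom, %; bars are exact 95% Clopper-Pearson intervals). Chromosomes 1, 13 and 22 combine the highest densities with shares near 50%, and chromosome 2 has 95.5%.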

How the data were processed

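The authors processed the ChIP-seq reads. The submitters' processing notes name MACS2, Bowtie, Trimmomatic, Picard and FastQC and the hg38 build. Not known are versions, settings (save a value of 0.05 in the deposited peak names), the use of inputs and how replicates were combined, none of it given in the sources used here. In the HDGF control list, though, all folds went with 1 constant background, on which summit reads were whole numbers to within 0.00868. Its folds thus hold no input or local background that varies between peaks, and no correction for regional differences in signal. Per peak, the deposited lists hold a score (an integer), a fold (the ratio of summit reads to background, in HDGF control with 1 added to both), −log10 p, −log10 q and the summit position. These are the authors' values and were used only within a list. Read totals were not used; the depth behind the HDGF control list is its background of 6.69 reads per position, recovered from the folds, and listed summits hold 16 to 400 reads.

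Overlap meant at least 1 shared base, and 39 HDGF control peaks that touch another list without a shared base were kept as control-only. Peaks off chromosomes 1 to 22 and X were left out (24 in HDGF control). Genes came from the RefSeq tables of GRCh38.p14: 19970 protein-coding bodies and 15811 starts (none on chromosome 8). The 1 kb window, 250 bp steps, 10 parts per gene and classes of strength and width are as stated in the report. Genes were named by rule: the 12 strongest starts with control-only peaks alone, the 6 genes with most summits and the 6 with most per 100 kb, up to 4 starts per gene list, and the 5 strongest intervals; exceptions are stated. The overlap and profile steps were tested on simulated data. Python 3.11.15, numpy 2.4.6, pandas 2.3.3 and scipy 1.17.1 were used. The members and gene lists were chosen with earlier results of these data known, so no value is independent support for a pattern. With 1 list per group there is no replicate error, and no test was run.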

Additional observations from a re-analysis of the deposited data

How the results depend on the processing

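With 1 list per group, replicates could not be left out in turn. No paired analysis was possible because each group has 1 deposited list and no result comes from a test. No direction reversed. The number of control-only peaks was 45089 when a gap of up to 1000 bp also removed a peak, 23588 and 3410 with HDGF control limited to −log10 q of at least 3 and 5, 28776 with all lists limited to at least 3, 40037 with HDGF control cut to the length of the starvation list and 44296 without chromosomes 1, 13, 22 and X. The share in gene bodies was 75.2% and 74.9% at −log10 q of at least 3 and 5, 80.0% without those chromosomes, 75.4% with gaps of up to 250 bp removed and 72.6% where only an overlap of at least 50% removed a peak. The share at gene starts was 1.65% at −log10 q of at least 5, 1.65% without those chromosomes, 0.342% and 6.75% with windows of 500 and 2500 bp and 2.06% counting any base. Starts with a control-only peak numbered 355 and 62 at −log10 q of at least 3 and 5, and 232 and 3818 with windows of 500 and 2500 bp; those with control-only peaks alone numbered 177 and 1654. The ratio of the first to the last of 10 parts of genes, whose alternatives were chosen after seeing the data as were the chromosome and 5 Mb comparisons, was 1.82 without those chromosomes, 1.82 without the first 1 kb, 1.96 at −log10 q of at least 3, 1.59 without the starvation list in the rule and 1.85 with gaps of up to 1000 bp removed. Depth limits the list to summits of at least 16 reads, so weaker summits were not detectable here.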

Other observations

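Among genes that do not encode proteins, long non-coding RNA genes shared a base with control-only HDGF peaks in 14.6% of cases (2653 of 18177), against 7.01% for the other HDGF control peaks. For small RNA genes the shares were lower for control-only peaks, on counts too small to give an order. They were 5.85% and 6.69% for small nucleolar RNA genes (70 and 80 of 1196) and 0.226% and 0.903% for tRNA genes (1 and 4 of 443). For small nuclear RNA genes they were 0.649% and 1.30% (1 and 2 of 154). Control-only peaks outnumber the others, at 69769 against 36904.

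Of the 8 strongest control-only peaks, 2 had their summit in a protein-coding gene, against 74.9% of those with −log10 q of at least 5. The strongest of all (chr13:16486721-16486952, fold 5.99, 45 summit reads) lay 2686943 bp from the nearest protein-coding gene. The next (chr13:67237652-67239619, fold 5.20) lay 8768 bp from PCDH9, a protocadherin gene. The other 6 were tied at a fold of 4.94 and 37 summit reads. Of these, 3 lay on chromosome 1 between 122907219 and 123577690 bp, in a centromeric region of the assembly, as does the strongest on chromosome 13. EPB41 (chr1:29034334-29034822) and SERBP1 (chr1:67410980-67412678) held 1 each in their bodies, and 1 lay on chromosome 10, 126545 bp from the nearest protein-coding gene. The 3 beyond the 5 that the rule names were added after their values were seen.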
